A study of Mus musculus with 9 samples.

Results

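Cell cycle and DNA replication genes were followed across 3 lines of mouse embryonic stem cells. The 37 genes were chosen by name for their roles in replication licensing, as cyclins, cyclin-dependent kinases (CDKs) and their inhibitor p27, in the RB-E2F pathway and in mitosis. All 37 were matched to Ensembl identifiers among the 52636 in the count table, and all 37 were among the 16198 genes that passed the filter on low counts. The control line was titled NanogKO (44C6), with the genotype N{delta}. The line titled NanogKO:Esrrb (44J) and the line titled NanogKO:Esrrb:Nanog (44JN) share the genotype entry N{delta}:cE:iN and differ only in their titles. They are called here the Nanog-null, Esrrb and Esrrb+Nanog lines. By title all 3 derive from a Nanog knockout. They were grown untreated in medium containing serum and the cytokine LIF, and were sorted for surface PECAM and absence of PDGFRA. Each line gave 3 libraries of ribosomal RNA-depleted total RNA. Each group is a single line, so added genes and line identity cannot be told apart. Whether replicates were separate cultures is not stated in the labels, so p-values measure only the spread between these libraries.

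Libraries held from 21808120 to 32496267 counts. Levels are normalised read counts per 1000000 (CPM), scaled to library total and trimmed mean of M values factors. A gene was called where its adjusted p was at most 0.05 in edgeR's quasi-likelihood test, with Benjamini-Hochberg adjustment over all tested genes. Nanog was at 14.3 to 16.0 CPM in Nanog-null libraries, 29.7 to 35.1 in Esrrb libraries and 221 to 332 in Esrrb+Nanog libraries. Esrrb was at 253 to 303, 691 to 948 and 1055 to 1150 CPM in the same order. For the genes of the sorted proteins, Pecam1 had means of 101, 61.8 and 49.7 CPM and was called lower in both lines given Esrrb than in the Nanog-null line. Pdgfra had means of 2.29, 10.4 and 2.90 CPM and was called higher in the Esrrb line than in either other line. The 8 stem cell markers, Pou5f1 and Sox2 among them, were above 50 CPM in every library, but differed between the lines. In Esrrb against Nanog-null 5 were called higher and 0 lower, with Tdgf1 2.28-fold and Fgf4 2.26-fold higher. In Esrrb+Nanog against Esrrb 0 were called higher and 3 lower. In Esrrb+Nanog against Nanog-null 4 were called higher and 2 lower, with Dppa5a 1.65-fold lower. Markers of other cell types were uneven, and not all were low. The primitive endoderm marker Lama1 was at 330 to 404 CPM in Esrrb+Nanog libraries. In Nanog-null replicate 2 the 8 fibroblast or feeder markers summed to 90.4 CPM against 18.8 and 29.4 in its partners, 9 trophoblast markers to 251 against 101 and 147, and 10 primitive endoderm markers to 194 against 60.0 and 102. Of the 37 cell cycle genes 1 differed in that library by over 1.5-fold from the mean of its 2 partners, which was Ccnd2. Without that library 15 of the 37 were called in Esrrb against Nanog-null in place of 19, with E2f2, Ccnd3, Ccnd1 and Cdk6 among the 15.

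The markers of other cell types also differed between the lines. The primitive endoderm markers summed to 60.0 to 194 CPM in Nanog-null libraries, 236 to 361 in Esrrb libraries and 405 to 482 in Esrrb+Nanog libraries. In Esrrb against Nanog-null 5 of the 9 tested were called higher and 1 lower. Gata6 went from 3.66 to 25.1 CPM and Lama1 from 43.5 to 136 CPM. Gata6 was at 6.90 CPM in the Esrrb+Nanog line and Lama1 at 356, which was most of the sum there. Against the Esrrb line 4 of the 9 tested were called lower in the Esrrb+Nanog line and 1, Lama1, higher. The trophoblast markers summed to 101 to 251, 36.7 to 63.6 and 49.8 to 57.3 CPM in the 3 lines, with 6 of 8 tested called lower and 0 higher in the Esrrb line. Among them, the keratin gene Krt18 was at 57.0, 7.28 and 7.85 CPM. Elf5 was too low to be tested, at 0 counts in all 3 Esrrb libraries and 1 to 3 in Nanog-null libraries. The fibroblast or feeder markers summed to 18.8 to 90.4, 13.1 to 17.8 and 16.0 to 20.3 CPM, with 4 of 6 tested called lower and 1 higher in the Esrrb line. Of these, Acta2 was at 26.0, 0.0314 and 0.0473 CPM. The part of these markers in the cell cycle changes was not tested.

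Replication is licensed in G1, when the origin recognition complex with CDC6 and CDT1 loads the ring of MCM2 to MCM7 onto DNA. Geminin, encoded by Gmnn, binds CDT1 and keeps origins from being licensed again in S phase. D cyclins with CDK4 or CDK6, and E cyclins with CDK2, phosphorylate RB and its relatives p107 (Rbl1) and p130 (Rbl2), which frees E2F factors to switch on replication genes. Mouse embryonic stem cells are known for a short G1 phase, low D cyclin activity and largely phosphorylated RB, and much of their cycle is spent in S phase. In bulk RNA, a change in the share of cells in a phase and a change in RNA per cell cannot be told apart.

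Compared with Nanog-null cells, in the Esrrb line the activator E2f2 rose 6.26-fold and the D-type cyclin Ccnd3 rose 3.01-fold. Cyclin D1 (Ccnd1) fell 2.88-fold and its kinase Cdk6 fell 2.49-fold. The replication and mitotic genes of this list moved by smaller amounts. The largest fitted change among these 21 genes (licensing factors, A and B cyclins, mitotic genes) was 1.39-fold, in Gmnn. Outside the list, the mitotic genes Cdc20 (log2 change 0.94) and Pttg1 (-1.15) changed more. In all, 13 of the 37 genes were called higher and 6 lower, 51.4% of the list, where 48.5% of all tested genes were called. The share is close to that of all genes. By size, 5 were called at 1.5-fold or more, where 26.5% of all genes were, and 4 at 2-fold or more, where 16.0% were. Libraries of the lines did not overlap for 16 genes higher and 6 lower in the Esrrb line, beside 58.4% in either direction of all tested genes. The median log2 change over the 37 genes was 0.09, against 0.01 over all tested genes, and the median absolute log2 change was 0.17 against 0.32.

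**Figure D1:**
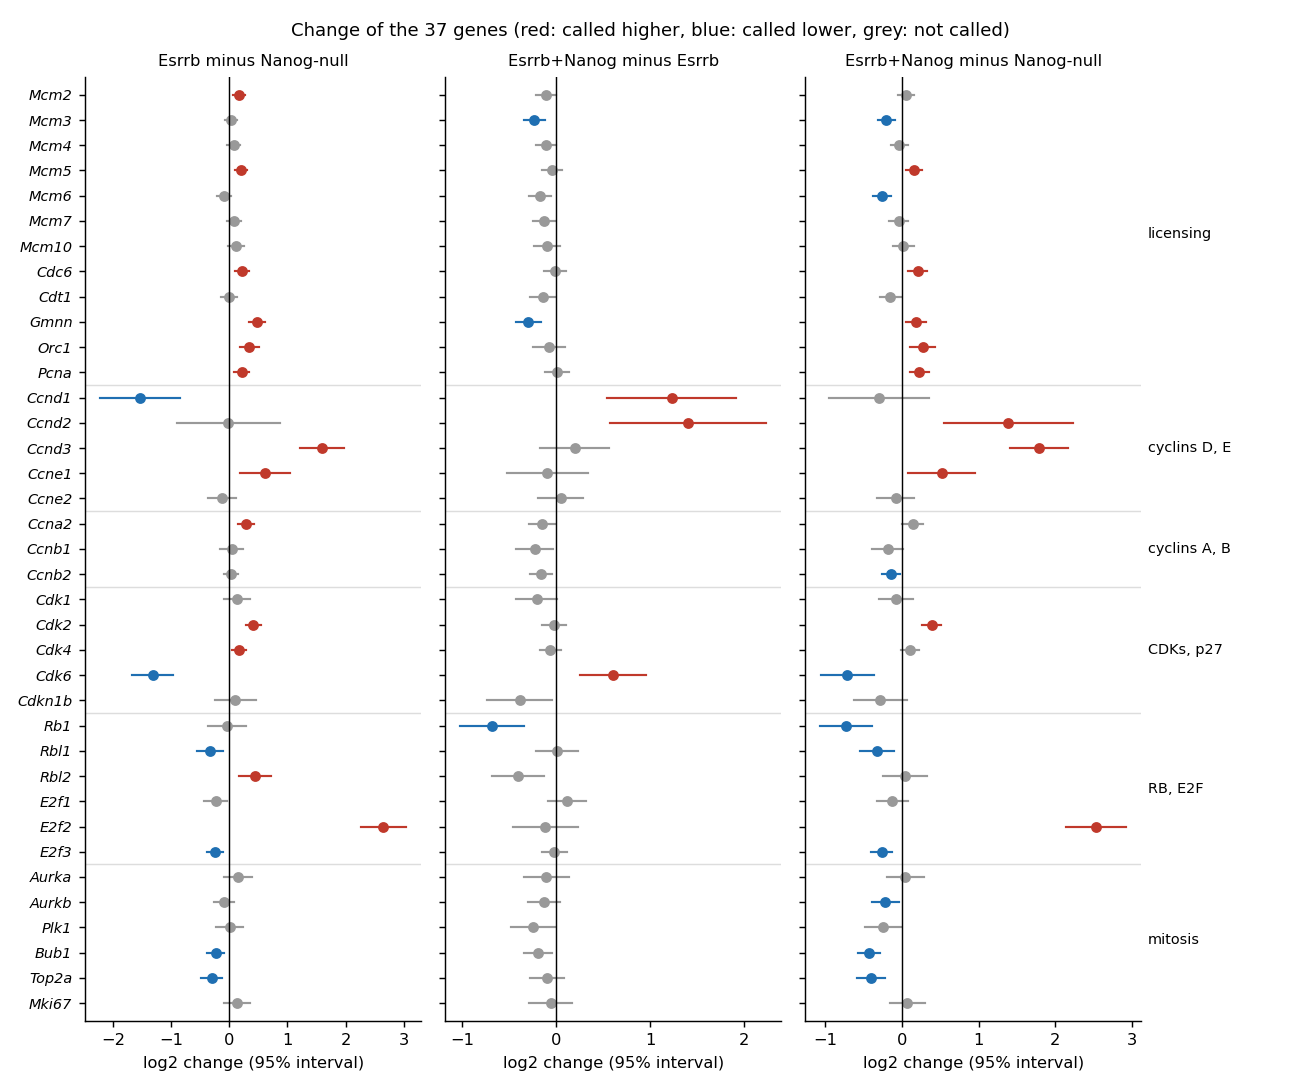
Fitted log2 change (dot) with its 95% interval (bar) for each of the 37 genes in the 3 comparisons between lines, 3 libraries per line, grouped by role, on a linear axis of log2 values. E2f2, Ccnd3, Ccnd1 and Cdk6 lie far from 0 in the first panel, Esrrb against Nanog-null, while licensing and mitotic genes lie within 0.5 of it.

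When Esrrb+Nanog cells were set against Esrrb cells, Ccnd1 rose 2.35-fold, the cyclin D2 gene Ccnd2 rose 2.65-fold and Cdk6 rose 1.52-fold, while Rb1, the retinoblastoma gene, fell 1.61-fold. Gmnn and Mcm3 were lower by smaller amounts. These 3 higher and 3 lower calls make 16.2% of the list, against 13.2% of all tested genes (5.43% higher and 7.75% lower). Of them 4 reached 1.5-fold and 2 reached 2-fold, as did 6.67% and 3.60% of all genes. Libraries did not overlap for 2 genes higher and 15 lower, beside 14.9% and 16.7% (31.6% in all) of all tested genes. The median log2 change of the list was -0.10, against -0.01 over all genes. The count of 6 was 2 without Esrrb replicate 1, 10 without Esrrb replicate 2, 3 without Esrrb replicate 3, 3 without Esrrb+Nanog replicate 2 and 10 with DESeq2. It was 4 without Esrrb+Nanog replicate 3, where Ccnd2 and Cdk6 lost their calls.

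Esrrb+Nanog against Nanog-null gave 10 genes higher and 10 lower. This is 54.1% of the list, against 54.4% of all tested genes (27.2% higher and 27.2% lower). Of them 5 reached 1.5-fold and 3 reached 2-fold, as did 30.5% and 18.5% of all genes. Libraries did not overlap for 12 genes higher and 13 lower, beside 31.2% and 30.7% (61.9% in all). E2f2 was 5.78-fold higher, Ccnd3 3.45-fold and Ccnd2 2.62-fold, while Rb1 was 1.65-fold and Cdk6 1.64-fold lower. The 3 comparisons share libraries, so each line's values enter a pair of them.

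The 12 licensing genes are described first. In the Esrrb line 6 were called higher than in the Nanog-null line (Gmnn, Orc1, Pcna, Cdc6, Mcm5 and Mcm2), none was lower and 6 were not called. Of all tested genes, 24.2% were called higher and 24.2% lower in this comparison. The geminin gene Gmnn (mm10 chromosome 13) was at 97.2, 101 and 99.4 CPM in Nanog-null libraries, at 139, 145 and 130 in Esrrb libraries, and at 106, 117 and 115 in Esrrb+Nanog libraries. The 3 lines did not overlap, with the Esrrb line highest and the Esrrb+Nanog line between the others. Its log2 change was 0.48 ± 0.06 (SE, n = 3 per line, edgeR adjusted p = 7.2e-05) from the Nanog-null to the Esrrb line. From the Esrrb to the Esrrb+Nanog line it was -0.30 ± 0.06 (edgeR adjusted p = 0.00903). Both calls held under each of the 16 alternatives tried, and the small excess over the Nanog-null line in the Esrrb+Nanog line (log2 change 0.18) lost its call without Nanog-null replicate 1 (0.15), 2 (0.19) or 3 (0.17), without Esrrb+Nanog replicate 2 (0.16) or 3 (0.17) and with no low-count filter (0.18).

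Subunits of the MCM ring, the replicative helicase, did not move as a block. Mcm5 was higher in the Esrrb line (510 ± 4.5 and 584 ± 6.8 CPM, SD, n = 3 per line) and stayed higher in the Esrrb+Nanog line (567 ± 8.8 CPM). Mcm3 was at 588 ± 13 CPM in Nanog-null cells and 601 ± 18 in Esrrb cells, and was lower in the Esrrb+Nanog line, at 511 ± 7.3 CPM. Mcm6 was also lowest there, at 442 ± 8.7 CPM against 529 ± 9.9 in the Nanog-null line. Its difference from the Esrrb line (log2 change -0.17) was called only with DESeq2 (-0.17) and without Esrrb replicate 2 (-0.21). Mcm4 and Mcm7 were called in no comparison, and all fitted log2 changes of Mcm2 to Mcm7 lay between -0.26 and 0.19. The call of Mcm3 between the Esrrb and Esrrb+Nanog lines ended without Esrrb replicate 1 (-0.22) or Esrrb+Nanog replicate 2 (-0.23). The call of Mcm5 between the Nanog-null and Esrrb+Nanog lines (log2 change 0.15) ended without Nanog-null replicate 1 (0.13), 2 (0.15) or 3 (0.15), without Esrrb+Nanog replicate 2 (0.15) and with no low-count filter (0.15). That of Mcm2 in the Esrrb line (0.17) ended without Nanog-null replicate 1 (0.12), 2 (0.15) or 3 (0.16), without Esrrb replicate 1 (0.16) and with no low-count filter (0.16).

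Among the loaders, Orc1, the largest subunit of the origin complex, went from 80.7 ± 3.8 to 103 ± 7.3 CPM between the Nanog-null and Esrrb lines, and Cdc6 from 81.5 ± 3.0 to 94.6 ± 1.8 CPM (SD, n = 3 per line). Orc1 was also higher in Esrrb+Nanog than in Nanog-null cells (log2 change 0.27), a call that ended without Esrrb+Nanog replicate 3 (0.20). Cdt1, the partner of geminin, was called in no comparison, at 305 ± 15, 303 ± 10 and 274 ± 15 CPM in the 3 lines, though its lower level in the Esrrb+Nanog than in the Nanog-null line (log2 change -0.15, adjusted p = 0.0524) was called without Nanog-null replicate 1 (-0.21) or Esrrb+Nanog replicate 1 (-0.18). It was also called with median-of-ratios factors (-0.16), with DESeq2 (-0.16) and with the stricter filter (-0.16). Mcm10, a factor that helps start the fork, was not called either. Pcna, the sliding clamp of the replicative polymerases, rose from 252 ± 4.5 to 293 ± 2.0 CPM, a call that ended without Nanog-null replicate 3 (log2 change 0.18 in place of 0.22). Its pseudogene Pcna-ps2 held 12880 counts over the 9 libraries against 68861 for Pcna and was also called higher, so how reads were divided between the copies is uncertain.

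E2F factors bind short sites with the pattern TTTSSCGC, where S is C or G, which are known from promoters of replication genes. Promoter sequence, here the 250 bases before a RefSeq start site (GRCm38.p6, the assembly of mm10), was found for 29 of the 37 genes. It was searched on both strands for TTTCCCGC, TTTGGCGC, TTTCGCGC and TTTGCCGC. At least 1 of these was present in 9 of 29 genes (31.0%), and in 2.16% of all 27018 genes with a promoter in the same table. A match is a description of the letters and not a bound site. One window of 30 bases is shown for each of the 9 genes, 5′ to 3′ on the gene's strand, with the matched letters in capitals.
Mcm5, chr8:75109345-75109374, plus strand: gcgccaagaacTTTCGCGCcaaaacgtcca
Mcm6, chr1:128359797-128359826, minus strand: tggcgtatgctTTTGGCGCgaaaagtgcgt
Mcm7, chr5:138172030-138172059, minus strand: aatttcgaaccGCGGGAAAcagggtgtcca
Cdc6, chr11:98908002-98908031, plus strand: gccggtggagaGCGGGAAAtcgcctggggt
Orc1, chr4:108579416-108579445, plus strand: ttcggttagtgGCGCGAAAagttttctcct
Cdk1, chr10:69353025-69353054, minus strand: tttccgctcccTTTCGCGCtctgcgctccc
Cdk2, chr10:128705173-128705202, minus strand: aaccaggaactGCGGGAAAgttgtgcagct
Rbl1, chr2:157204535-157204564, minus strand: caagaaggcgatTTTCGCGCgctttgtcgc
E2f3, chr13:29986064-29986093, minus strand: aatatggtttgaaaagccgGCGGGAAAtct
In Mcm5 and Mcm6 a match on the other strand overlaps the one shown, and Mcm6 has a further one 47 bases before the start. In Esrrb against Nanog-null these 9 genes had fitted log2 changes from -0.33 to 0.41 with a median of 0.13, 4 higher and 2 lower. The 20 other genes with a promoter had a median of 0.11, with 7 higher and 3 lower. Of all tested genes 24.2% were called higher and 24.2% lower.

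The D cyclins carried the largest changes among the cyclins. Ccnd3 (mm10 chromosome 17, 47505051 to 47599691) was at 101, 108 and 111 CPM in Nanog-null libraries, at 310, 418 and 234 in Esrrb libraries, and at 319, 431 and 353 in Esrrb+Nanog libraries. The Nanog-null libraries lay below all others, and the other lines overlapped. The log2 change was 1.59 ± 0.17 (SE, n = 3 per line, edgeR adjusted p = 2.03e-05) in the Esrrb line and 1.79 ± 0.17 (adjusted p = 6.39e-06) in the Esrrb+Nanog line. Between the lines given Esrrb it was 0.20 with a 95% interval from -0.17 to 0.56 (adjusted p = 0.494), and it was called without Esrrb replicate 2 (0.43). The adjusted p of that difference ran from 0.046 to 0.962 over its alternatives.

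The table holds 2 RefSeq starts of Ccnd3, whose 250-base promoters are shown because Ccnd3 was higher in both lines given Esrrb. Binding to them was not tested. The estrogen-related receptors bind the sequence TCAAGGTCA, which contains the nuclear receptor core AAGGTCA. The capitals mark the core, read on the minus strand, in the promoter of the upstream start, and a CCAAT box in that of the downstream start.
Ccnd3, chr17:47504801-47505050, plus strand: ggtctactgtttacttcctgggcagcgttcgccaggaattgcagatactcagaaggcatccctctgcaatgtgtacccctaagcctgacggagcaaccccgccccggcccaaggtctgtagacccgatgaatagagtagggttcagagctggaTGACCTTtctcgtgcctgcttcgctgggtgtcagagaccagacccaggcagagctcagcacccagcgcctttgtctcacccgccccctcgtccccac
Ccnd3, chr17:47593217-47593466, plus strand: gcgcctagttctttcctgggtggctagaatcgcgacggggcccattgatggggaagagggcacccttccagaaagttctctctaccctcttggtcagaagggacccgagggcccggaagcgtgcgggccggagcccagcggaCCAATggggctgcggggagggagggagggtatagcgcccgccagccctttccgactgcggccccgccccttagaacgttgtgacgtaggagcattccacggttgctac
Ccnd3 was the only 1 of the 29 genes with AAGGTCA on either strand (3.45%), which 4.70% of all genes in the table hold. The full TCAAGGTCA was in none of the 29 and in 0.422% of all genes. CCAAT was in 21 of 29 (72.4%) and in 37.5% of all genes. Counts per gene do not separate the transcripts of these starts.

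Ccnd1 (mm10 chromosome 7, 144929931 to 144939925) moved the other way. It was at 38.7, 32.5 and 30.9 CPM in Nanog-null libraries, at 12.0, 11 and 12.4 in Esrrb libraries, and at 15.9, 19.9 and 46.9 in Esrrb+Nanog libraries. Every Esrrb library lay below all others, and Esrrb+Nanog replicate 3 lay above its partners and above all Nanog-null libraries. The log2 change was -1.53 ± 0.31 (SE, n = 3 per line, edgeR adjusted p = 0.00179) in the Esrrb line and was called under all 16 alternatives. From the Esrrb to the Esrrb+Nanog line it was 1.23 ± 0.31 (adjusted p = 0.0246, 3.35e-26 with no low-count filter and up to 0.0799 elsewhere), and 0.60 without Esrrb+Nanog replicate 3. That call ended without Esrrb replicate 1 (1.24) or 3 (1.26). Against the Nanog-null line the Esrrb+Nanog line was not called for Ccnd1 (log2 change -0.30, adjusted p = 0.425, range 0.000202 to 0.94), but was called lower without its replicate 3 (-0.92) and with no low-count filter (-0.30). The antisense neighbour LTO1 shares 23.4% of the annotated exon bases of Ccnd1. LTO1 lay between 9.96 and 16.5 CPM in all libraries and was not called between the Esrrb and Nanog-null lines (log2 change 0.17), but was higher in the Esrrb+Nanog than in the Esrrb line (0.33).

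Ccnd2 was the least abundant of the 37 genes, with 36 to 316 counts per library. It was at 1.67, 3.31 and 2.74 CPM in Nanog-null libraries, at 1.76, 2.23 and 3.76 in Esrrb libraries, and at 4.57, 4.70 and 11.1 in Esrrb+Nanog libraries. The Esrrb+Nanog libraries were the highest, again with replicate 3 above its partners. The log2 change from the Esrrb line was 1.40 ± 0.38 (SE, n = 3 per line, edgeR adjusted p = 0.0322, range 3.91e-11 to 0.129). Without Esrrb+Nanog replicate 3 it was 0.85 and not called, and the call also ended without Esrrb replicate 1 (1.19) or 2 (1.31). Against the Nanog-null line it was 1.39 (adjusted p = 0.00904), and 0.84 and not called without Esrrb+Nanog replicate 3.

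**Figure D2:**
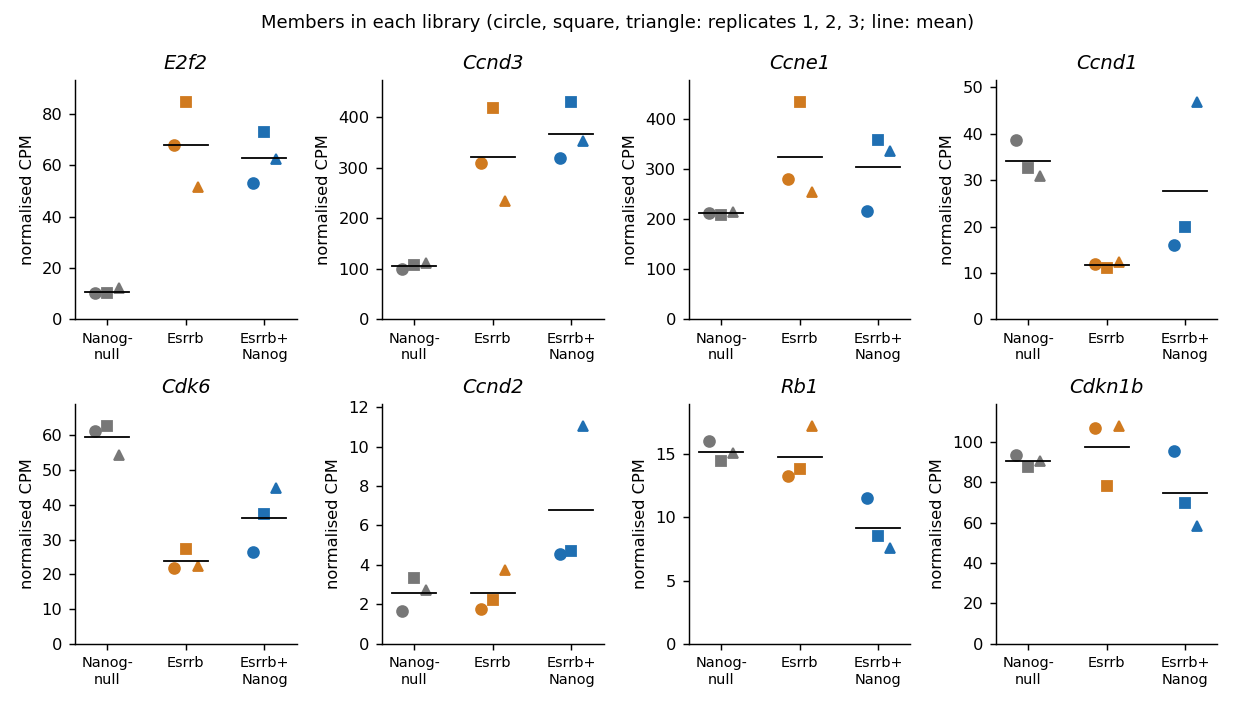
Normalised CPM (linear axis from 0) of 8 genes in each of the 9 libraries, with the mean of each line as a bar. E2f2 and Ccnd3 are low in all 3 Nanog-null libraries and high in the other 6, while Ccnd1 and Ccnd2 are highest in Esrrb+Nanog replicate 3.

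Within families, levels of different genes were compared per length, as CPM per kb of annotated exons. On this scale Ccnd3 made up 61.8 ± 3.7% of the summed D cyclin level in the Nanog-null line, 92.5 ± 2.5% in the Esrrb line and 86.6 ± 7.2% in the Esrrb+Nanog line (SD, n = 3 per line). Ccnd1 made up 36.8 ± 4.1%, 6.73 ± 2.1% and 11.9 ± 6.5%. The summed level of the 3 D cyclins was 19.6 ± 0.19 CPM per kb in Nanog-null cells, 39.3 ± 10 in the Esrrb line and 48.5 ± 7.2 in the Esrrb+Nanog line. The exon length counts every annotated exon, so a gene with long alternative exons, such as Ccnd3 (8775 bases) or Cdk6 (13989 bases), is placed low.

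**Figure D3:**
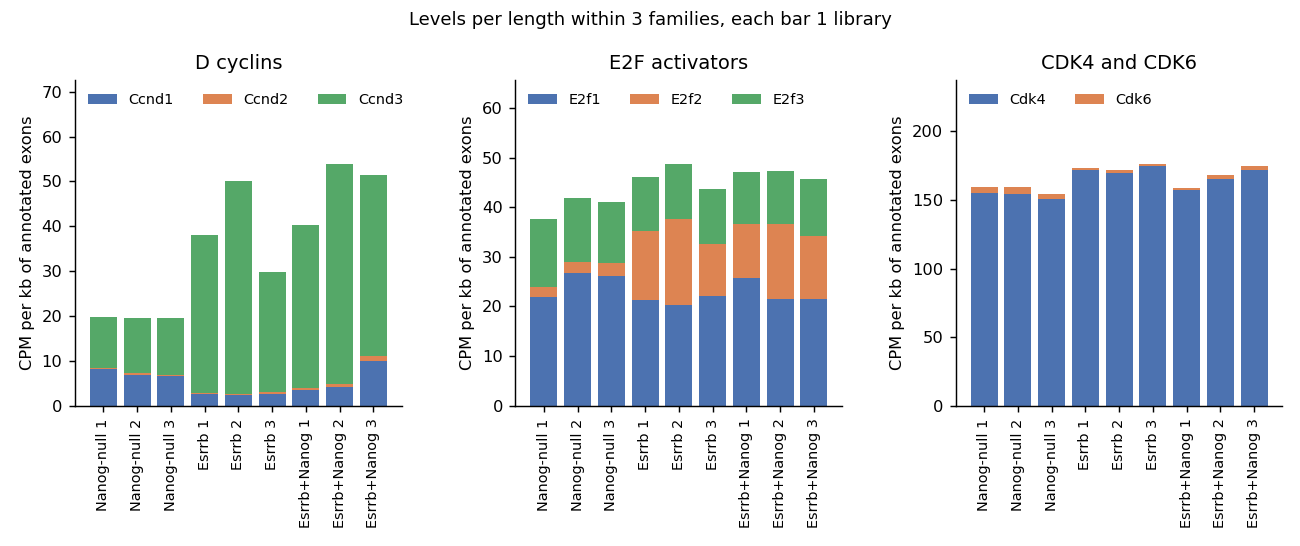
Stacked levels in CPM per kb of annotated exons (linear axis from 0) for the D cyclins, E2f1 to E2f3, and Cdk4 with Cdk6, each bar being 1 library. Ccnd3 fills most of the D cyclin bar in the Esrrb and Esrrb+Nanog lines, E2f2 widens from a thin band to a broad one, and Cdk6 is a thin band on Cdk4 in every library.

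Of the E cyclins, which drive entry into S phase, Ccne1 was higher in the Esrrb line by a smaller and less even amount. It was at 213, 208 and 214 CPM in Nanog-null libraries, at 281, 435 and 255 in Esrrb libraries, and at 216, 358 and 337 in Esrrb+Nanog libraries. All 6 libraries of the lines given Esrrb were above the Nanog-null libraries, Esrrb+Nanog replicate 1 by little. The log2 change was 0.61 ± 0.20 (SE, n = 3 per line, edgeR adjusted p = 0.0237) in the Esrrb line. It was 0.34 and not called without Esrrb replicate 2, 0.59, 0.59 and 0.60 and not called without each Nanog-null replicate in turn, and 0.61 and not called with DESeq2. In the Esrrb+Nanog line it was 0.52 (adjusted p = 0.0441), a call that ended without Nanog-null replicate 1 (0.51), 2 (0.50) or 3 (0.52), without Esrrb+Nanog replicate 2 (0.39) or 3 (0.44), with DESeq2 (0.51) and with the stricter filter (0.51). The second E cyclin, Ccne2, was called in no comparison and lay between 15.1 and 19.2 CPM throughout. Its antisense neighbour Ints8 shares 17.4% of its annotated exon bases and held 22992 counts against 4231 for Ccne2. Against the Nanog-null line Ints8 was called lower in the Esrrb (log2 change -0.19) and Esrrb+Nanog (-0.23) lines. Reads in the shared bases cannot be assigned, as the strand setting is not given.

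A and B cyclins, which act in S phase and at entry into mitosis, changed little. Ccna2 was at 272, 252 and 252 CPM in Nanog-null libraries, 309, 326 and 315 in Esrrb libraries, and 262, 297 and 297 in Esrrb+Nanog libraries. The Esrrb libraries were the highest, with no overlap with either line. Its log2 change was 0.29 ± 0.06 (SE, n = 3 per line, edgeR adjusted p = 0.00262) between the Nanog-null and Esrrb lines. In Esrrb+Nanog against Nanog-null it was 0.14, called only with library totals alone (0.17) and without Esrrb+Nanog replicate 1 (0.19). The antisense gene Exosc9 shares 12.5% of the annotated exon bases of Ccna2 and was also higher, with a log2 change of 0.25. Ccnb1 was called in no comparison with all libraries and the filter. In Esrrb+Nanog against Nanog-null (-0.19) it was called lower without Esrrb+Nanog replicate 3 (-0.27) and with no low-count filter (-0.19), and in Esrrb+Nanog against Esrrb (-0.23) with no low-count filter (-0.23). Ccnb2 was called lower in the Esrrb+Nanog than in the Nanog-null line, at 150 ± 5.3 against 165 ± 2.1 CPM (log2 change -0.14, edgeR adjusted p = 0.0473), and that call ended whichever library was left out (-0.16 to -0.12), with library totals alone (-0.11) and with no low-count filter (-0.14). Against the Esrrb line the change of Ccnb2 was -0.17, called only with DESeq2 (-0.16).

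Among the kinases, Cdk6 had the largest change. It was at 61.3, 62.7 and 54.3 CPM in Nanog-null libraries, at 21.9, 27.3 and 22.4 in Esrrb libraries, and at 26.4, 37.5 and 44.9 in Esrrb+Nanog libraries. The Nanog-null libraries lay above all others, and the lowest Esrrb+Nanog library fell within the range of the Esrrb line. The log2 change was -1.31 ± 0.16 (SE, n = 3 per line, edgeR adjusted p = 4.65e-05) in the Esrrb line and -0.71 ± 0.16 (adjusted p = 0.00238) in the Esrrb+Nanog line, both called under all 16 alternatives. The rise from the Esrrb to the Esrrb+Nanog line was 0.60 ± 0.16 (adjusted p = 0.0301, range 2.05e-08 to 0.117). That call ended without Esrrb replicate 1 (0.54) or 3 (0.56), without Esrrb+Nanog replicate 2 (0.58) or 3 (0.42), and in the fit of only these 2 lines.

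Cdk4, the other partner of the D cyclins, was at 503, 502 and 490 CPM in Nanog-null libraries, 558, 551 and 567 in Esrrb libraries, and 510, 538 and 558 in Esrrb+Nanog libraries. The Esrrb libraries were above all Nanog-null libraries, by a log2 change of 0.16 ± 0.05 (SE, n = 3 per line, edgeR adjusted p = 0.0218). The call of this small difference held under 10 of 16 alternatives and ended without Nanog-null replicate 1 (0.15), 2 (0.16) or 3 (0.13), without Esrrb replicate 1 (0.17) or 3 (0.16) and with no low-count filter (0.16). In Esrrb+Nanog against Nanog-null the change was 0.10, called only with library totals alone (0.13) and without Esrrb+Nanog replicate 1 (0.13). Per length, Cdk4 made up 97.3 ± 0.16% of the Cdk4 and Cdk6 sum in Nanog-null cells and 99.0 ± 0.13% in the Esrrb line (SD, n = 3 per line). Tspan31, antisense to Cdk4 over 19.7% of its exon bases, was not called in that comparison (log2 change 0.16). Cdk2, the partner of the E and A cyclins, was higher in both lines given Esrrb, at 82.3 ± 2.8, 110 ± 3.3 and 108 ± 4.5 CPM in the 3 lines. Cdk1, the mitotic kinase, was called in no comparison.

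The p27 gene Cdkn1b, an inhibitor of cyclin-CDK complexes, was at 93.6, 87.7 and 90.5 CPM in Nanog-null libraries, at 107, 78.3 and 108 in Esrrb libraries, and at 95.4, 69.6 and 58.5 in Esrrb+Nanog libraries. The lines overlapped, and Esrrb+Nanog replicate 3 was the lowest library. It was called in no comparison. From the Esrrb to the Esrrb+Nanog line the log2 change was -0.39, with a 95% interval from -0.74 to -0.04 (edgeR adjusted p = 0.134, range 7.38e-05 to 0.358). It was called lower without Esrrb replicate 2 (-0.53) and without Esrrb+Nanog replicate 1 (-0.60). With no low-count filter it was also called, at a near-equal change (-0.38) and an edgeR adjusted p of 7.38e-05. Against the Nanog-null line it was -0.28, and was called lower without Esrrb+Nanog replicate 1 (-0.51) and with no low-count filter (-0.28).

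E2f2, an activator E2F, had the largest change of the 37 genes. It was at 10.2, 10.3 and 12.1 CPM in Nanog-null libraries, at 68.0, 84.8 and 51.4 in Esrrb libraries, and at 53.0, 73.1 and 62.5 in Esrrb+Nanog libraries. The 6 libraries of the lines given Esrrb lay above 50 CPM and overlapped with each other, and the Nanog-null libraries lay far below. The log2 change was 2.65 ± 0.18 (SE, n = 3 per line, edgeR adjusted p = 6.28e-07) in the Esrrb line and 2.53 ± 0.18 (adjusted p = 5.78e-07) in the Esrrb+Nanog line, both called under all 16 alternatives. Between the lines given Esrrb it was -0.12, with a 95% interval from -0.47 to 0.23 (adjusted p = 0.686, range to 0.998). E2f2 lies on mm10 chromosome 4 from 136172394 to 136196057. The 250 bases before the upstream of its 2 RefSeq starts are shown because this gene moved most, with a CCAAT box in capitals.
E2f2, chr4:136172024-136172273, plus strand: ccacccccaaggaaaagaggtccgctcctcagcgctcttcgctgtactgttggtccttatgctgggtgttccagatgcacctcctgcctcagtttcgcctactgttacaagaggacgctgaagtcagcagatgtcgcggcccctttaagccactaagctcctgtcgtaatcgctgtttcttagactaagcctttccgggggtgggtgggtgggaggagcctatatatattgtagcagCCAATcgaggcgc
Neither the 4 E2F patterns nor AAGGTCA was found in this window or in that of the second start.

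The other activators did not rise. E2f3 was lower in both lines given Esrrb, at 70.5 ± 3.1, 59.6 ± 0.44 and 58.8 ± 3.0 CPM in the 3 lines, and E2f1 was called in no comparison (78.8 ± 8.4, 67.0 ± 3.0 and 72.3 ± 7.9 CPM). Its lower level in the Esrrb line (log2 change -0.24, edgeR adjusted p = 0.0542) was just outside the threshold, and was called under 8 of 16 alternatives, among them without Nanog-null replicate 1 (-0.35) and without Esrrb+Nanog replicate 1 (-0.25). Per length, E2f2 made up 5.53 ± 0.49% of the sum of E2f1, E2f2 and E2f3 in the Nanog-null line, 30 ± 5.8% in the Esrrb line and 27.6 ± 4.3% in the Esrrb+Nanog line (SD, n = 3 per line). The summed level of the 3 genes was 40.2 ± 2.3, 46.2 ± 2.5 and 46.6 ± 0.89 CPM per kb.

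The 3 pocket protein genes, whose products hold E2F factors in check, each had a pattern of its own. Rb1 was at 16.1, 14.4 and 15.1 CPM in Nanog-null libraries, at 13.3, 13.8 and 17.2 in Esrrb libraries, and at 11.5, 8.52 and 7.55 in Esrrb+Nanog libraries. The Esrrb+Nanog libraries lay below all others. The log2 change from the Esrrb line was -0.68 ± 0.15 (SE, n = 3 per line, edgeR adjusted p = 0.0136, range 1.29e-05 to 0.0587), and the call ended without Esrrb replicate 3 (-0.56) or Esrrb+Nanog replicate 2 (-0.63). Against the Nanog-null line it was -0.72 ± 0.15 (adjusted p = 0.00195) and was called under all 16 alternatives. The antisense genes Lpar6 and Rcbtb2 share 6.78% and 8.11% of the annotated exon bases of Rb1. Both were also lower in the Esrrb+Nanog line than in the Esrrb line, with log2 changes of -0.64 and -0.61. In Esrrb against Nanog-null both were called lower too (-0.36 and -1.33), while Rb1 was not called (-0.04). The counting setting for strand is not given in the sources used here. Reads of these neighbours and of Rb1 cannot be told apart where their exons overlap.

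Rbl1, which encodes p107, was at 47.4, 40.6 and 42.0 CPM in Nanog-null libraries, 36.5, 29.8 and 37 in Esrrb libraries, and 37.7, 34.8 and 31.4 in Esrrb+Nanog libraries. It was lower in both lines given Esrrb, with log2 changes of -0.33 ± 0.10 and -0.32 ± 0.10 (SE, n = 3 per line, edgeR adjusted p = 0.0185 and 0.0192). The first call ended without Nanog-null replicate 1 (-0.29) or Esrrb replicate 2 (-0.23), and the second without Nanog-null replicate 1 (-0.27) or Esrrb+Nanog replicate 2 (-0.32) or 3 (-0.25). Rbl2, which encodes p130, was at 8.15, 6.73 and 8.36 CPM in Nanog-null libraries, 10.0, 9.71 and 11.9 in Esrrb libraries, and 7.64, 7.68 and 8.53 in Esrrb+Nanog libraries. The Esrrb libraries lay above the rest, with a log2 change of 0.44 ± 0.13 (edgeR adjusted p = 0.0131) from the Nanog-null line, which lost its call without Nanog-null replicate 2 (0.34) or Esrrb replicate 3 (0.35). From the Esrrb to the Esrrb+Nanog line it was -0.40 ± 0.13 (edgeR adjusted p = 0.0568) and not called, and was called with DESeq2 (-0.40) and without Esrrb replicate 2 (-0.46). The overlapping gene Aktip was lower in the Esrrb than in the Nanog-null line (log2 change -0.34), where Rbl2 was higher. From the Esrrb to the Esrrb+Nanog line Aktip was not called (0.004).

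The 6 mitotic and proliferation genes held none that was called higher in any comparison. Of all tested genes 24.2% were called higher in Esrrb against Nanog-null, 5.43% in Esrrb+Nanog against Esrrb and 27.2% in Esrrb+Nanog against Nanog-null. Among 25 further spindle and checkpoint genes, 10 were called higher and 1 lower in Esrrb against Nanog-null. Bub1, a kinase of the spindle checkpoint, was at 298, 268 and 290 CPM in Nanog-null libraries, 243, 227 and 259 in Esrrb libraries, and 211, 203 and 222 in Esrrb+Nanog libraries. The 3 lines did not overlap. The log2 change from the Nanog-null line was -0.23 ± 0.07 (SE, n = 3 per line, edgeR adjusted p = 0.0131) in the Esrrb line, which lost its call without Esrrb replicate 2 (-0.18), and -0.43 ± 0.07 (adjusted p = 0.000229) in the Esrrb+Nanog line. From the Esrrb to the Esrrb+Nanog line it was -0.20 (edgeR adjusted p = 0.0786) and not called, and was called with DESeq2 (-0.19) and without Esrrb replicate 2 (-0.24). Top2a, which untangles chromosomes, was the most abundant of the 37 genes in CPM and was also lower in both lines, at 1209 ± 93, 982 ± 45 and 915 ± 101 CPM (SD, n = 3 per line). The chromosomal passenger kinase Aurkb was called lower only in Esrrb+Nanog against Nanog-null, at 94.0 ± 10 against 109 ± 4.7 CPM. That call (log2 change -0.22) ended without Nanog-null replicate 1 (-0.20) or 2 (-0.22), and when Esrrb replicate 1 (-0.21) or Esrrb+Nanog replicate 1 (-0.13) was left out. Aurka, Plk1 and the proliferation marker Mki67 were called in no comparison with all libraries. Mki67 was called higher in the Esrrb (0.26) and Esrrb+Nanog (0.21) lines without Nanog-null replicate 1, Aurka higher (0.19) in the Esrrb+Nanog line without its replicate 1, and Plk1 lower (-0.34) there without its replicate 3, each against the Nanog-null line. With no low-count filter Plk1 was also called lower in Esrrb+Nanog against Nanog-null (-0.24) and against Esrrb (-0.25), and in the fit of only 2 lines Aurka was called higher in Esrrb against Nanog-null (0.15). Mki67 was at 391 ± 71, 428 ± 19 and 411 ± 24 CPM in the 3 lines. Esrrb+Nanog replicate 1 was the lowest library for Plk1 (141 CPM against 194 and 202 in its partners), Cdk1 (145 against 178 and 202) and Aurka (125 against 171 and 184).

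**Figure D4:**
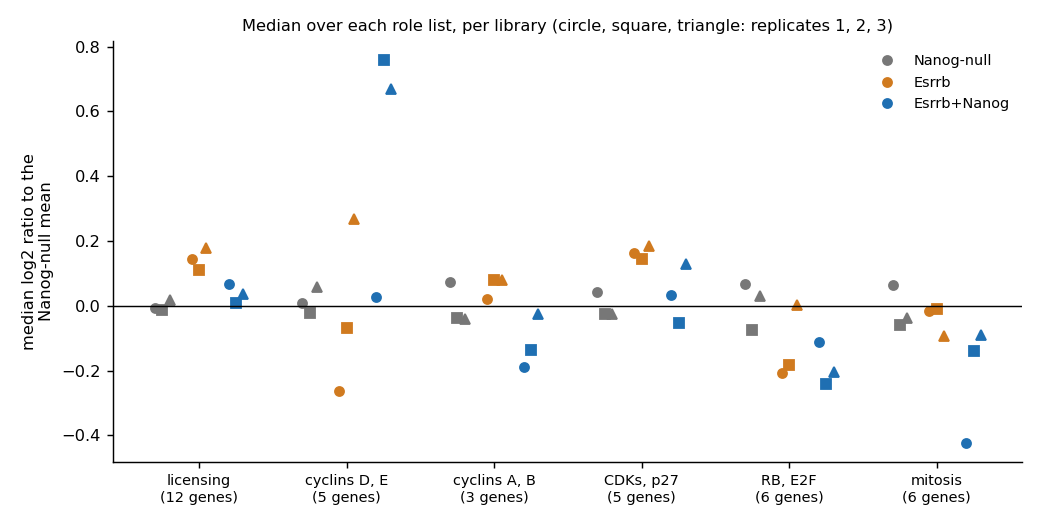
Median log2 ratio to the mean of the Nanog-null line over the genes of each role list, with 1 point per library (linear axis of log2 values). Licensing genes sit at 0.11 to 0.18 in Esrrb libraries and at 0.01 to 0.07 in Esrrb+Nanog libraries, and mitotic genes are lowest in Esrrb+Nanog replicate 1, at -0.42.

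A further 106 genes of the same machinery were listed by role, and all were tested. In Esrrb against Nanog-null 35 were higher and 14 lower (46.2%, beside 48.5% of all genes). The mitotic activator Cdc20 rose from a mean of 294 ± 12 to 565 ± 46 CPM (SD, 3 libraries each, log2 change 0.94, edgeR adjusted p = 1.58e-05). Mybl2, the B-Myb factor of S and G2 phase genes, rose from 652 ± 35 to 934 ± 40 CPM, and Rrm2, a subunit of ribonucleotide reductase, from 319 ± 11 to 427 ± 6.0 CPM. Securin (Pttg1), which holds separase inactive until anaphase, fell from 41.1 ± 1.2 to 18.6 ± 2.5 CPM (log2 change -1.15, edgeR adjusted p = 1.31e-05). Mnat1, a subunit of the CDK-activating kinase, fell from 65.7 ± 0.75 to 44.7 ± 1.6 CPM, and the repressor E2f7 from 51.4 ± 1.1 to 35.9 ± 3.3 CPM. Of the 25 spindle and checkpoint genes in this set, 10 were higher and 1, Pttg1, was lower. These are 11 of 25, where 24.2% of all tested genes were called higher and 24.2% lower (48.5% in all).

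Between the Esrrb and Esrrb+Nanog lines 3 of the 106 genes were higher and 6 lower (8.49%, beside 13.2% of all genes). The higher ones were E2f6, E2f8 and Dtl, of which the first pair encode repressor E2Fs and Dtl a factor that guides destruction of CDT1. E2f6 went from 45.6 ± 5.3 to 61.3 ± 10 CPM and E2f8 from 59.5 ± 4.9 to 75.6 ± 10 CPM (SD, n = 3 per line). The call of E2f6 (log2 change 0.42) ended without Nanog-null replicate 3 (0.43), Esrrb replicate 1 (0.42) or 3 (0.35), and without Esrrb+Nanog replicate 1 (0.32) or 2 (0.41), and in the fit of only these lines (0.43). That of E2f8 (0.34) ended without Nanog-null replicate 3 (0.35), Esrrb replicate 1 (0.33) or 3 (0.30), and without Esrrb+Nanog replicate 2 (0.28) or 3 (0.29), and in the fit of only these lines (0.35). That of Dtl (0.20) ended without the same libraries as E2f6, at 0.16 to 0.21, in the fit of only these lines (0.21) and with no low-count filter (0.20). Dut, which clears dUTP, fell from 239 ± 1.7 to 175 ± 23 CPM, Rrm2 from 427 ± 6.0 to 349 ± 16 CPM, and the polymerase delta subunit Pold3 from 96.5 ± 4.3 to 81.4 ± 0.75 CPM. Pold3 lost its call without Esrrb replicate 1 (-0.21) or Esrrb+Nanog replicate 2 (-0.24). The count of 9 was 2 without Esrrb replicate 1, 3 without Esrrb replicate 3, 3 without Nanog-null replicate 3, 5 without Esrrb+Nanog replicate 1 and 2 without Esrrb+Nanog replicate 2. In Esrrb+Nanog against Nanog-null 26 were higher and 23 lower (46.2%, beside 54.4% of all genes). Among these, E2f8 (43.4 ± 1.7 CPM in the Nanog-null line), Cdc20 and E2f6 (32.5 ± 2.4 CPM) rose, while Pttg1 fell to 15.9 ± 2.4 CPM. Mnat1 was again lower there, at 44.8 ± 0.98 CPM, as was the polymerase delta catalytic subunit Pold1, at 194 ± 5.0 against 285 ± 13 CPM.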

How the data were processed

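Total RNA of sorted cells was ribosome-depleted and made into NEBNext libraries, per the labels' protocols. Per the submitters' processing notes, the tools were STAR 2.5.3a and bcl2fastq 2.19.1 and the build mm10, with no role given for each. The authors deposited unscaled counts of reads for each Ensembl identifier, with a column for every library, per the file headers. For the annotation, counter and strand setting, the entry is: not given in the sources used here. Library columns matched the 9 samples by name, and 6 others were not used here.

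Symbols, positions and exon lengths came from GENCODE M21 (52489 of 52636 IDs matched). Counts were tested in R 4.3.3 with edgeR 4.0.16: its default low-count rule over the 3 lines, trimmed mean of M values factors, and a quasi-likelihood fit of line to all 9 libraries. The standard error of a change is its size over the root of its F statistic, and 95% intervals use its degrees of freedom. CPM carry no pseudocount. Libraries of a line differed by more than counting noise (chi-square per gene of 5.59 to 22.3). The procedure was tested on simulated data in which 200 genes were changed. In the data here 7849 and 8816 of 16198 tested genes were called in the Esrrb and Esrrb+Nanog lines against Nanog-null. The simulation cannot tell how the procedure performs when so many genes change. Members and lists were chosen with earlier results of these data known. Values in every library are given for members called at 1.5-fold or more (or the best of a role list), D cyclins, Cdk4, Cdk6, Cdkn1b and pocket proteins, and the 3 strongest other genes per direction are named. Alternatives were median-of-ratios factors, library totals, DESeq2 1.42.0, no low-count filter, at least 5 CPM in 3 libraries, only the 2 lines compared, the replicate number as a block, and each library left out.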

Additional observations from a re-analysis of the deposited data

How the results depend on the processing

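Counts of called members in the Esrrb line (19) and the Esrrb+Nanog line (20), each against Nanog-null, stayed within 1.5 times under all 16 alternatives, from 15 to 21 and from 15 to 23. Between the Esrrb and Esrrb+Nanog lines the 6 called members became 10 with DESeq2 and 2 to 10 with each library left out. The 9 other pathway genes became 14 with DESeq2, 3 in the fit of only the 2 lines and 2 to 12 with each library left out, and the 2135 genes called in all became 1105 to 2374. The members' median log2 change in that comparison, -0.104, was -0.0436 with library totals alone and -0.118 to -0.0359 with each library left out. The cause was not tested. With library totals alone Cdk4 was at 0.00132 there in place of -0.0619. With each library left out, some values called in neither fit changed sign. There the log2 change of Ccne1 ranged from -0.240 to 0.178, that of E2f2 from -0.283 to 0.0726 and that of Rbl1 from -0.0852 to 0.0767. In Esrrb against Nanog-null Ccnd2 ranged from -0.372 to 0.198 and Rb1 from -0.159 to 0.0333. In Esrrb+Nanog against Nanog-null Rbl2 ranged from -0.0590 to 0.0894. With no low-count filter, members gained or lost calls at near-equal log2 changes. For Ccnd1 in Esrrb+Nanog against Nanog-null the edgeR adjusted p went from 0.425 to 0.0204 (-0.298 and -0.296). For Cdk4 in Esrrb against Nanog-null it went from 0.0218 to 0.0706 (0.164 and 0.160). Calls gained only under this setting are no further evidence of a difference.

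Same-numbered libraries of different lines had correlations of their deviations from -0.0248 to 0.278, with 3 of 9 pairs over 0.1, and 4 of 9 libraries correlated best with their own number, so the numbers were not taken to pair libraries. With the replicate block 19, 8 and 19 members were called in the 3 comparisons in place of 19, 6 and 20. Between the Esrrb and Esrrb+Nanog lines Bub1 (-0.195) and Rbl2 (-0.404) gained a call with it, and in Esrrb+Nanog against Nanog-null Ccnb2 (-0.138) lost its call. Dtl (0.199) also lost its call between the Esrrb and Esrrb+Nanog lines. Low counts limit Ccnd2, Rbl2 and Rb1.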

Other observations

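In the Esrrb line, replicate 2 had the most Esrrb (948 CPM against 768 and 691) and also the most E2f2 (84.8 CPM), Ccnd3 (418 CPM) and Ccne1 (435 CPM), while replicate 3 had the least of all 4. In the Esrrb+Nanog line, replicate 2 again had the most Esrrb (1150 CPM against 1112 and 1055), E2f2 (73.1 CPM), Ccnd3 (431 CPM) and Ccne1 (358 CPM), but the least Esrrb was in replicate 3 and the least of the others in replicate 1. With 3 libraries per line this was not tested, and the genes were picked after their values were seen. Replicate 2 of both lines also gave the highest same-number correlation of deviations (0.278). A pattern shared by replicate number was not separated from one that follows Esrrb.

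Esrrb+Nanog replicate 3 held the most Ccnd1, Ccnd2 and Cdk6 of its line and the least Rb1 and Cdkn1b. Its fibroblast and trophoblast marker sums (19.2 and 49.8 CPM) lay within or below those of its partners (16.0 and 20.3, and 54.0 and 57.3), and its primitive endoderm sum (482 CPM) was above theirs (405 and 414). Most of each endoderm sum was the single gene Lama1, at 404 CPM in replicate 3 and 334 and 330 in its partners. The part of these markers in the result was not tested.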
